A study of Mus musculus with 32 samples.

Results

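The lungs described here came from 10 CLIC4-Knockout (KO) mice, of the 32 samples in the series, and were chosen by their labels alone. Of these, 6 were pre-metastatic lungs taken 14 days after an orthograft, that is, after 6DT1 mammary tumor cells were injected into the fourth mammary fat pad, and 4 were lungs of KO mice at baseline. All were virgin FVB/N females, used at 6 to 8 weeks of age, in which *Clic4* is deleted in every tissue, bred from heterozygous parents, whereas the implanted tumor cells carry an intact *Clic4*. Lungs of grafted mice were taken 14 days after the injection, and the age at which baseline lungs were taken is not given. An age difference between the groups could not be told apart from the graft. The baseline lungs are from other animals, so each 14-day lung has no measurement of its own before the graft, and a mock injection was not part of the groups used here. The 10 wildtype (WT) lungs of the series, 6 at 14 days and 4 at baseline, serve for comparison. They also enter the shared fit from which the spread of each gene is estimated. The question the comparison addresses is how the transcriptome of the KO lung differs between tumor-bearing and tumor-free mice before metastases are seen.

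CLIC4 belongs to a family of chloride intracellular channel proteins and takes part in TGF-β signaling, in the assembly of the actin cytoskeleton and in the formation of vessels. A primary tumor can act on a distant lung before tumor cells grow there, through secreted factors that release neutrophils and platelets from the bone marrow and change the extracellular matrix of the lung. Tissue with such changes is known as a premetastatic niche. RNA was measured in bulk lung tissue, so a change in a transcript per cell and a change in the number of cells that carry it cannot be told apart.

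Between 4567220 and 6431692 counts per KO lung were assigned to genes, and 16029 of the 29511 genes in the table had enough counts to be tested. Levels are given in counts per 1000000 counts (CPM) after TMM normalization, and the lists of values below are the lowest, median and highest of the 6 lungs at 14 days followed by control lungs 1 to 4. The 14-day lung numbered 2 stood apart from the other KO lungs in its interferon genes and had the lowest neutrophil level of the tumor-bearing lungs, beside the controls. Counts at an FDR of 0.25 that change without it are given both ways. Lung 2 was set apart by these values, so a shift of an interferon or neutrophil list without it is no test of that list. *Ltbp1*, *Ppbp*, *Tubb1*, *Col5a2*, *Col6a3*, *Npnt* and *C2* are named only for their values without it and were chosen after those were seen. The trend of gene levels with the GC content of the gene also differed among libraries. Per 10 percentage points of GC it ranged from -0.07200 to 0.06999 on the log2 scale in the 14-day KO lungs, and was 0.0214, -0.127, -0.105 and -0.0151 in control KO lungs 1 to 4. Control lungs 2 and 3 therefore had the lowest relative levels of GC-rich genes.

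**Figure D1:**
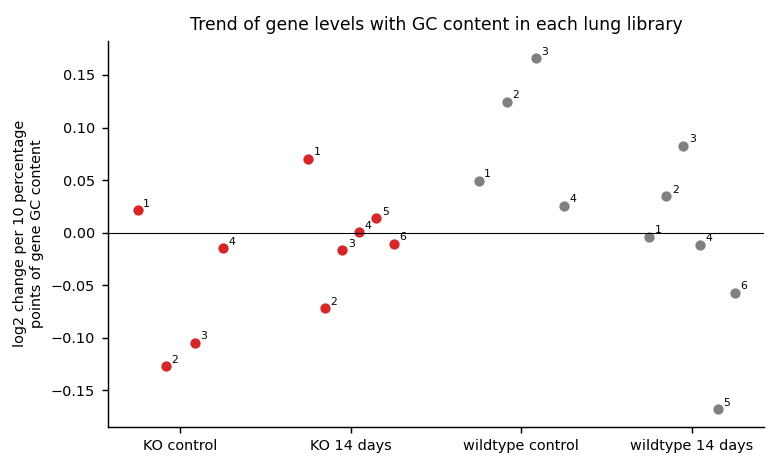
Trend of log2 gene levels with GC content in each of the 20 lung libraries, in log2 units per 10 percentage points of GC, for the 4 groups of lungs. Points are single libraries with their replicate numbers. Control KO lungs 2 and 3 lie at -0.127 and -0.105, and all 4 wildtype controls lie above 0.

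The targeted gene was examined first. *Clic4* (GRCm38, chr4:135213969-135272814) was at 251 ± 27.2 CPM (SD, n = 6) in KO and 703 ± 118 CPM (SD, n = 6) in WT lungs at 14 days, a log2 difference of -1.49 (SE 0.09, FDR 2.06e-09, edgeR quasi-likelihood test). In controls it was at 234 ± 23.2 CPM (SD, n = 4) in KO and 641 ± 23.3 CPM (SD, n = 4) in WT lungs (log2 difference -1.45, SE 0.11, FDR 1.73e-07). The KO and WT lungs did not overlap. The counts per gene do not show which exons the reads in KO lungs came from, so that the level in KO lungs is no measure of intact transcript. Within KO lungs *Clic4* did not pass the test between 14 days (225, 247 and 287 CPM) and controls (218, 210.4, 258 and 249.7 CPM, log2 fold change 0.10, SE 0.10, FDR 0.819). Of 5 genes of the Clic family tested, 0 passed (median log2 fold change -0.03).

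In the 14-day KO lungs 42 genes differed from the controls by at least 1.5-fold with an FDR under 0.25, the limits taken over from the study. These are 0.262% of the genes tested, with 34 that rose (0.212%) and 8 that fell (0.0499%). At an FDR of 0.25 with any fold, 125 genes rose (0.78%) and 44 fell (0.275%). None passed an FDR of 0.05 together with the fold limit in edgeR, against 13 in DESeq2 (11 higher and 2 lower), a setting added after the data were seen. In edgeR 767 genes were higher and 618 lower at an unadjusted p under 0.05 (4.79% and 3.86%, together 8.64%). Genes that rose past both limits did so by log2 fold changes of 0.59 to 2.77, and those that fell by changes of -1.06 to -0.64. The median over all genes tested was 0.00388, and 51% of them were above 0.

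In 23 of the 42 genes the 6 lungs at 14 days did not overlap with the 4 controls, whereas over all genes tested 1.35% were higher and 0.836% lower without overlap. The 42 were chosen by a test on these same lungs, so their larger share follows from the choice and is no support for the calls. The count of genes depended on single libraries. Without control lung 2 only 2 genes passed both limits and without control lung 3 only 4, while 60 passed without 14-day lung 2 (0.373%), and 0 of the 42 passed with every one of the 10 lungs left out in turn. Without 14-day lung 2 the genes lost from the 42 were *Gata3*, *Cd180*, *Rasgrp4*, *Adamts7*, *Setd1b*, *Prr12*, *Rgma* and *Zfp703*, with FDRs of 0.251 to 0.285, and *Nlgn2*, by its fold. With any fold, 9 genes passed the FDR of 0.25 without control lung 2 (0.0553%), 14 without control lung 3 (0.0866%) and 215 without 14-day lung 2 (1.34%, 0.84% higher and 0.498% lower). Of 62 genes described here with an FDR under 0.25, *Nfix*, *Col4a6*, *Lrp10*, *Mgat4b*, *Rnf44* and *Rnf10* had one with each KO lung left out, and the other 56 did not without at least 1 lung.

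**Figure D2:**
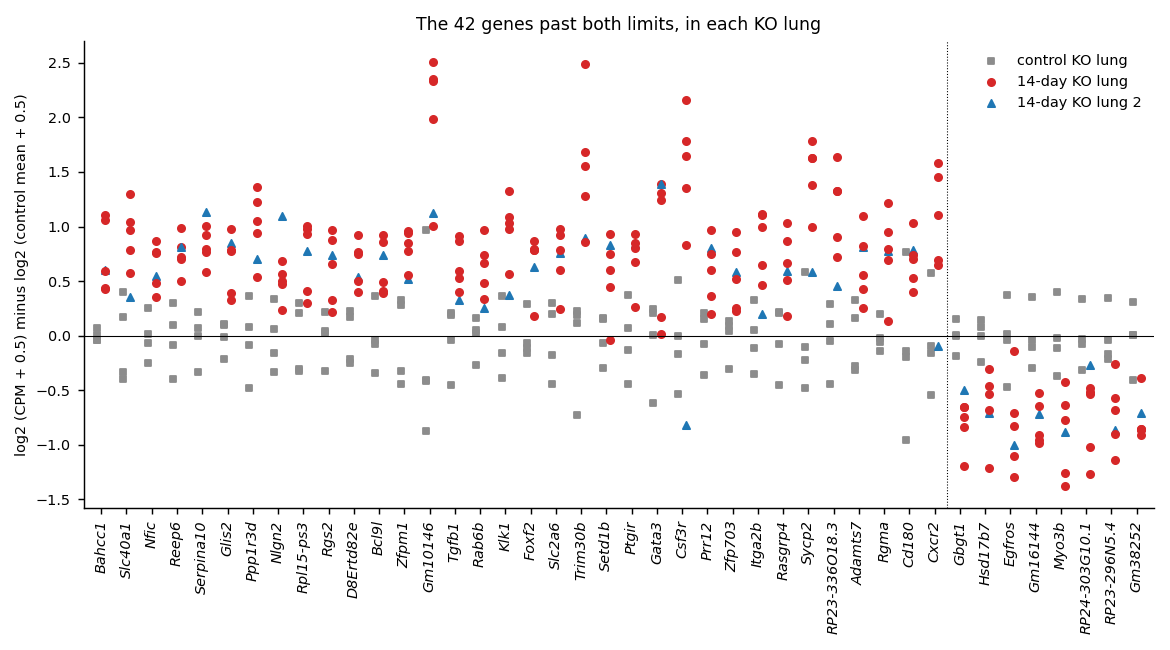
The 42 genes past both limits in each KO lung, as log2 of CPM plus 0.5 relative to log2 of the control mean plus 0.5. Grey squares are the 4 controls, red circles and the blue triangle (lung 2) are the 6 lungs at 14 days, and the dotted line separates the 34 genes that were higher, in order of p, from the 8 that were lower. *Csf3r* and *Cxcr2* are those of the 34 higher genes in which lung 2 lies below the control mean.

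**Figure D3:**
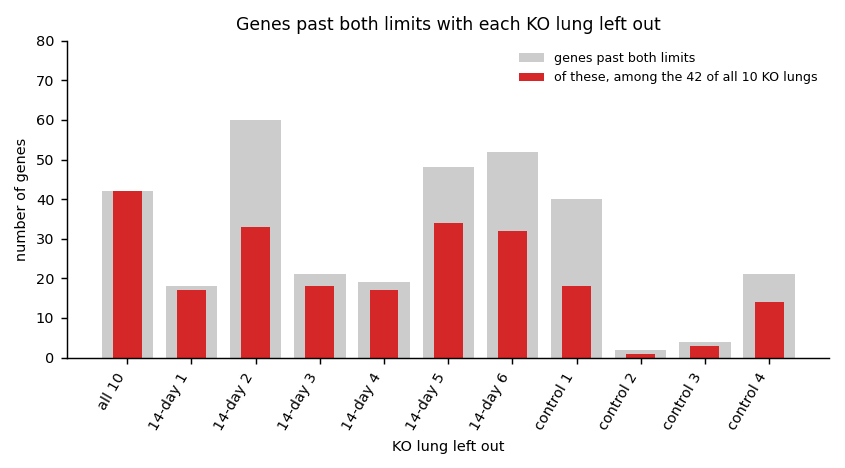
Number of genes past both limits in the fit of all lungs and with each KO lung left out in turn (grey), and how many of these are among the 42 of the full set (red). The count is 2 without control lung 2, 4 without control lung 3 and 60 without 14-day lung 2.

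Of the 6 genes with an FDR under 0.05 at any fold (0.0312% of genes tested higher and 0.00624% lower), 5 rose and 1 fell, none by 1.5-fold. *Nfix* (chr8:84699876-84800344), a transcription factor of the nuclear factor I family, was at 58.2, 63.2 and 70.2 CPM at 14 days and 47.2, 49.7, 35.8 and 44.2 CPM in controls, so that every 14-day lung exceeded every control (log2 fold change 0.53, SE 0.09, FDR 0.0398). The sole gene of the 6 that fell was *Col4a6*, a collagen chain of basement membranes, at 29.3, 34.4 and 39.6 CPM and 48.5, 46.4, 46.8 and 46.8 CPM (log2 fold change -0.45, SE 0.08, FDR 0.0398). Again the groups did not overlap. *Lrp10*, a receptor of the LDL receptor family, rose from 59.1, 56.3, 56.5 and 54.98 CPM to 69.6, 74.04 and 79.8 CPM (log2 fold change 0.39, SE 0.07, FDR 0.0398). *Mgat4b*, a Golgi enzyme that branches N-glycans, rose by 0.50 (SE 0.08), and the RING finger genes *Rnf44* and *Rnf10* by 0.56 (SE 0.10) and 0.38 (SE 0.07) on the log2 scale, all 3 without overlap. With GC offsets *Mgat4b* had an FDR of 0.2905. Without control lung 3 the 6 genes had FDRs of 0.229 to 0.244, and without control lung 2 of 0.0516 to 0.185.

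Of the 34 genes that rose past both limits, those for proteins that act on DNA or chromatin are described first. They were grouped after their values were seen, and their share was not compared with that among all genes. *Bahcc1*, a chromatin reader, had the smallest p, with 22.7, 25.7 and 36.7 CPM at 14 days and 17.7, 16.4, 16.3 and 16.9 CPM in controls (log2 fold change 0.74, SE 0.16, FDR 0.109). Each tumor-bearing lung lay above the controls, which lay close together. *Nfic*, the second member of the nuclear factor I family to rise, was at 59.3, 72.95 and 84.5 CPM and 55.2, 44.02, 38.7 and 46.6 CPM (log2 fold change 0.65, SE 0.14, FDR 0.119). The zinc finger factor gene *Glis2* was at 37.5, 51.5 and 59.02 CPM and 29.5, 31.9, 25.5 and 32.04 CPM (log2 fold change 0.72, SE 0.16, FDR 0.126). *Bcl9l*, a coactivator of β-catenin, was at 38.01, 44.5 and 54.98 CPM and 37.3, 28.05, 22.6 and 27.3 CPM (log2 fold change 0.66, SE 0.16), and none of these 4 genes overlapped between the groups. *Zfpm1*, a cofactor of GATA factors, rose by 0.83 (SE 0.20) and the histone methyltransferase gene *Setd1b* by 0.63 (SE 0.17). *Gata3*, a master factor of type 2 and other T cells, rose by 1.10 (SE 0.30) with 4 of 6 lungs above all controls, *Foxf2*, a factor of mesenchymal cells, by 0.71 (SE 0.19), and *Zfp703* by 0.59 (SE 0.17). For *Bahcc1* and *Nfic* the FDRs were 0.278 and 0.278 without control lung 2 and 0.305 and 0.357 without control lung 3. Several of these genes overlap others on the opposite strand, *Glis2* with *Pam16* and *Bcl9l* with *Cxcr5* among them.

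GC content moved with these calls. The median GC content was 56.8% over the 34 genes that rose, 45.7% over the 8 that fell and 49.9% over all genes tested, and 26 of the 34 lay above that last value. With the GC trend of each library offset, 20 genes passed both limits (0.125%), all among the 42. *Bahcc1*, *Glis2* and *Zfpm1* were among them, whereas *Nfic* (log2 fold change 0.51, FDR 0.0691) and *Bcl9l* (0.50, FDR 0.0789) passed the FDR but not the fold limit, and *Setd1b*, *Gata3*, *Foxf2* and *Zfp703* had FDRs of 0.283, 0.269, 0.294 and 0.332. *Prr12*, a GC-rich gene for a proline-rich nuclear protein, went from 0.65 (SE 0.18, FDR 0.218) to 0.53 (FDR 0.245).

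Of the 4 nuclear factor I genes, whose products bind the same palindromic DNA element, *Nfix* and *Nfic* rose and the others did not pass. *Nfia* was at 93.4, 96.5 and 101 CPM and 99.6, 106, 94.7 and 102 CPM (log2 fold change -0.05, SE 0.05), and *Nfib* at 384, 407 and 426 CPM and 414, 426, 416 and 386 CPM (log2 fold change -0.01, SE 0.05). The median of the 4 was 0.26.

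In the TGF-β pathway, 4 of 30 genes tested rose and 0 fell at an FDR of 0.25 (over all genes 0.78% and 0.275%), with a median log2 fold change of 0.03 over the list. They comprise the ligand, a protein that stores it, a co-receptor and an inhibitor. *Tgfb1*, the ligand, was at 11.4, 13.5 and 17.4 CPM at 14 days and 10.4, 10.3, 6.45 and 8.72 CPM in controls, with no overlap between the groups (log2 fold change 0.66, SE 0.17, FDR 0.173). *Ltbp4*, which anchors latent TGF-β to microfibrils, was at 214, 244 and 303 CPM and 187, 167, 144 and 181 CPM (log2 fold change 0.56, SE 0.12, FDR 0.106), also without overlap. The endothelial co-receptor gene *Eng* was at 309, 347 and 369.9 CPM and 318, 263, 258 and 286 CPM (log2 fold change 0.29, SE 0.08, FDR 0.206), and *Smad7*, an intracellular inhibitor of the receptors, at 55.01, 61.97 and 73.01 CPM and 46.5, 47.1, 43.6 and 58.8 CPM (log2 fold change 0.33, SE 0.10, FDR 0.247). Both overlapped. With GC offsets *Tgfb1*, *Ltbp4* and *Eng* still had FDRs of 0.207, 0.0398 and 0.199, and *Smad7* one of 0.434. None of the 4 passed without control lung 2 (FDR 0.278 to 0.478) or without control lung 3 (FDR 0.316 to 0.518). Without 14-day lung 2 the 4 passed, and *Ltbp1*, which also stores latent TGF-β, fell (log2 fold change -0.19, SE 0.05, FDR 0.208).

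Neutrophils are short-lived phagocytes that the bone marrow releases in response to G-CSF and to chemokines read by CXCR2. Of 16 neutrophil genes tested, 2 rose and 0 fell at an FDR of 0.25, 10 were higher and 0 lower at an unadjusted p under 0.05, and 15 had a log2 fold change above 0. Over all genes 0.78% rose at that FDR, 4.79% were higher at that p and 51% were above 0. The median log2 fold change was 1.16. *Csf3r* (chr4:126024550-126044440), the receptor of G-CSF, was at 10.5, 54.6 and 86.01 CPM at 14 days and 18.8, 16.8, 27.1 and 12.9 CPM in controls (log2 fold change 1.42, SE 0.40, FDR 0.217). *Cxcr2* was at 9.36, 19.4 and 31.1 CPM and 6.72, 9.35, 15.2 and 8.91 CPM (log2 fold change 1.02, SE 0.30, FDR 0.248). In both genes the lowest tumor-bearing lung was lung 2, and the other 5 exceeded every control. Its summed level over the list was 148 CPM, against 206 to 573 CPM in the other tumor-bearing lungs and 162 to 241 CPM in controls. Without it the median was 1.37, 12 genes were higher at an unadjusted p under 0.05 (4.93% of all genes tested then, beside 4.5% lower), and 7 rose at an FDR of 0.25 (0.84% of all genes). Lung 2 was the lowest 14-day lung in 13 of the 16 genes. Its removal was therefore bound to raise the list, and the values without it are no support for a rise. With GC offsets the FDR of *Csf3r* was 0.276 and that of *Cxcr2* 0.275, without control lung 2 they were 0.419 and 0.4505, and without control lung 3 0.359 and 0.316.

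The abundant neutrophil calcium-binding proteins S100A8 and S100A9, named here after their values were seen, had log2 fold changes of 1.67 (SE 0.54, FDR 0.304) and 1.68 (SE 0.55, FDR 0.304). *S100a8* was at 5.801, 25.7 and 65.7 CPM at 14 days and 8.95, 7.79, 14.7 and 6.83 CPM in controls. Neither passed with all lungs, and without lung 2 the FDRs were 0.1502 and 0.1301. *Il1r2*, a decoy receptor for interleukin-1, was at 0.187, 0.811 and 3.79 CPM and 0, 0.3896, 0.484 and 0.1896 CPM (log2 fold change 2.24, SE 0.77, FDR 0.354). Only 4 of 12 genes of immature granulocytes could be tested, and 0 passed. Of the 4, 1 had a log2 fold change above 0 and 3 below it, with a median of -0.25. In that list *Ctsg* and *Ms4a3* had no count in any KO lung. The 1 gene above 0 was *Ngp*, a granule protein, at 0.363, 2.71 and 5.44 CPM and 0.746, 0, 0.968 and 1.14 CPM (log2 fold change 1.91, SE 0.75).

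Platelet and megakaryocyte genes were described as a list of 16 tested genes, of which 1 rose and 0 fell at an FDR of 0.25, and 7 were higher and 0 lower at an unadjusted p under 0.05. Over all genes 0.78% rose and 4.79% were higher by these limits. *Itga2b*, the αIIb chain of the fibrinogen receptor, was at 11.04, 17.4 and 21.3 CPM and 8.77, 9.93, 12.1 and 7.39 CPM (log2 fold change 0.82, SE 0.24, FDR 0.224), with 5 of 6 lungs above the controls. Its FDR was 0.3298 with GC offsets, 0.417 without control lung 2 and 0.357 without control lung 3. Without 14-day lung 2, *Itga2b* (FDR 0.148), the platelet chemokine gene *Ppbp* (log2 fold change 1.01, SE 0.27, FDR 0.175) and the platelet tubulin gene *Tubb1* (log2 fold change 0.85, SE 0.25, FDR 0.217) rose, 0.84% of all genes doing so then, and 8 genes were higher at an unadjusted p under 0.05 (4.93%). The median of the list was 0.57, and 0.68 without lung 2, which was the lowest of the tumor-bearing lungs at a summed 157 CPM. The other 5 had 189.8 to 241 CPM and the controls 147 to 174 CPM.

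*Slc40a1*, ferroportin, the exporter of iron from macrophages and other cells, rose from 11.01, 9.35, 6.13 and 6.45 CPM in controls to 10.7, 15.6 and 20.9 CPM at 14 days (log2 fold change 0.92, SE 0.20, FDR 0.119), with lung 2 the one that overlapped. Its FDR was 0.0655 without that lung. Without control lung 2 the FDR was 0.278, and without control lung 3 0.346. It was the 1 gene of 24 tested for iron and heme handling with an FDR under 0.25, and the list's median was -0.01. Erythroid genes, which include the hemoglobins, did not pass in any case (12 tested, median 0.42), and lung 6 had a summed 12835 CPM of them, against 3548 to 6814 CPM in controls. The part of blood content in the other results was not tested.

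Interferons induce antiviral and antigen-presentation genes in nearly all cells. Among the KO lungs a single library had high levels of these genes. Of 37 type I interferon response genes tested and 28 genes of the response to interferon-γ, 0 rose and 0 fell at an FDR of 0.25. *Isg15*, a ubiquitin-like modifier, was at 59.5 CPM in 14-day lung 2 and at 1.71 to 5.32 CPM in the other 9 KO lungs. *Ifit3* was at 431 CPM there and at 35.1 to 67.7 CPM elsewhere. Lung 2 had the highest level of all KO lungs in 35 of the 37 type I genes and 23 of the 28 interferon-γ genes, against 11.9% of all genes tested.

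The median log2 fold change of the type I list was 0.76 with lung 2 and -0.07 without it, and that of the interferon-γ list 0.59 with and 0.09 without it. For *Isg15* the value went from 2.01 (SE 1.04) to 0.22 (SE 0.85). *Rsad2* (viperin) was at 0.94 (SE 0.51) with lung 2 and 0.59 without it, and the guanylate-binding protein gene *Gbp5* at 0.86 (SE 0.39) with and 0.43 without it. Summed over the type I list, lung 2 had 4899.9 CPM, the other tumor-bearing lungs 1194 to 1250.2 CPM and the controls 974 to 1563 CPM, so apart from lung 2 the tumor-bearing lungs lay within the range of the controls. A tumor-bearing WT lung, number 5, reached the same level at 5006 CPM, the other WT lungs at 14 days being at 1062 to 1698 CPM and the WT controls at 1142 to 2400.5 CPM. In the interferon-γ list that WT lung had 3620.3 CPM and KO lung 2 3916 CPM.

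The promoter of *Isg15* is shown because it carries the DNA element through which interferon-induced factors act. From 250 bases before to 50 after the start of the transcript (RefSeq, GRCm38.p6, chr4:156200769-156201068, minus strand), capitals mark the element GAAA followed, after any 2 bases, by GAAA.
Isg15: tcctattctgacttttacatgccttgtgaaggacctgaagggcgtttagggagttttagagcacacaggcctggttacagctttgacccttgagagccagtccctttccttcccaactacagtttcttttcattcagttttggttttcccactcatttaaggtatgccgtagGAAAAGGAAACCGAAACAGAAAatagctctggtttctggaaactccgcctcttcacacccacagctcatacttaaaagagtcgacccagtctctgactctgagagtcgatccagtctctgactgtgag
This element was searched on both strands and occurs 3 times here, overlapping each other, and in 3.44% of 32851 mouse promoters of the same length. Of the 38 genes of the type I list, 27 matched a promoter by symbol and 15 of these hold it, by promoter 16 of 31. A match to letters is a description and not a bound site.

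MHC class II molecules present peptides on dendritic cells, macrophages and B cells. Of 11 class II genes tested, 2 rose and 0 fell at an FDR of 0.25 (over all genes 0.78% and 0.275%), and the median was 0.28. *H2-Ab1*, a β chain, was at 177, 200.1 and 228 CPM and 154, 178, 172 and 137 CPM (log2 fold change 0.33, SE 0.09, FDR 0.174), and the invariant chain gene *Cd74* at 743, 804 and 969 CPM and 705, 713, 701 and 576 CPM (log2 fold change 0.31, SE 0.09, FDR 0.239), the latter without overlap. With GC offsets their FDRs were 0.4203 and 0.407, and without lung 2 they were 0.218 and 0.306. None of these was kept without control lung 2 (0.278 and 0.366) or 3 (0.322 and 0.429). *Ciita*, the regulator of class II transcription, was at a log2 fold change of 0.29 (SE 0.12, FDR 0.466). Class I presentation genes did not pass (21 tested, median 0.14, 0.05 without lung 2).

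In the lists of lymphocyte genes, 0 of 23 T cell genes and 0 of 19 B and plasma cell genes passed at an FDR of 0.25. The medians were 0.24 and 0.39, with 19 and 18 genes above 0, against 51% of all genes tested. Lung 2 was the lowest lung at 14 days in 16 and 10 of these genes, and without it the medians were 0.35 and 0.53. *Tcf7*, a factor of naive T cells, was at 17.96, 24.1 and 30.7 CPM and 17.4, 18.9, 19.7 and 16.7 CPM (log2 fold change 0.41, SE 0.14, FDR 0.3404), and without lung 2 it was the 1 gene of these lists to pass (log2 fold change 0.48, SE 0.13, FDR 0.198). *Cd79a*, a chain of the B cell receptor, was at 4.12, 10.4 and 16.8 CPM and 6.53, 9.74, 8.39 and 2.84 CPM (log2 fold change 0.61, SE 0.35, FDR 0.665), and its groups overlapped. A pair of immune genes rose past both limits outside these lists, the Toll-like receptor homolog *Cd180* (log2 fold change 0.78, SE 0.23, FDR 0.247) and the Ras activator *Rasgrp4* (log2 fold change 0.71, SE 0.21, FDR 0.242). *Bcl6*, a repressor of germinal center B cells and other lymphocytes, rose by 0.41 (SE 0.12, FDR 0.218), the 1 gene of the lymphoid organ list to do so. Its FDR was 0.259 with GC offsets, and 0.326 to 0.425 without any 1 of the 4 controls or of 14-day lungs 1, 3 and 4.

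Collagens and elastic fibers give the lung its tensile strength and recoil. Of 35 genes of the collagen and elastic fiber list, 4 fell and 0 rose at an FDR of 0.25, 11 were lower and 0 higher at an unadjusted p under 0.05, and the median log2 fold change was -0.15. Over all genes 0.275% fell and 3.86% were lower by these limits. Beside *Col4a6*, another basement membrane chain, *Col4a3*, fell from 423, 369, 357 and 436 CPM to 325, 334 and 356 CPM (log2 fold change -0.23, SE 0.06, FDR 0.211), and its groups did not overlap. The microfibril gene *Fbn1* was at 178, 239 and 294 CPM at 14 days and 371, 313, 282 and 359 CPM in controls (log2 fold change -0.46, SE 0.12, FDR 0.161), and *Col6a1*, a beaded filament collagen, at 231, 249.8 and 290.0 CPM and 323, 285, 302 and 355 CPM (log2 fold change -0.31, SE 0.07, FDR 0.138). In these last 2 genes the highest tumor-bearing lung was lung 2, which overlapped with the controls, as did lung 6 in *Fbn1*. Without lung 2 the median was -0.19 and 6 genes fell (0.498% of all genes did so then), with *Col5a2* (log2 fold change -0.34, SE 0.10, FDR 0.242) and *Col6a3* (log2 fold change -0.33, SE 0.09, FDR 0.208) added. At an unadjusted p under 0.05, 14 were then lower (4.5% of all genes). With GC offsets 4 fell, not including *Col4a3* (FDR 0.3298). Without control lung 2 or control lung 3 only *Col4a6* passed (FDR 0.0879 and 0.229).

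None of 26 genes of collagen processing and crosslinking passed (median -0.09, 1 lower at an unadjusted p under 0.05, 2 without lung 2), and among 25 fibroblast genes 0 fell at an FDR of 0.25 and 7 were lower at an unadjusted p under 0.05 (6 without lung 2). Over all genes tested 3.86% were lower at that p, and 4.5% without lung 2. The summed level of the fibroblast list was 9604 to 10549 CPM at 14 days and 10741 to 11219 CPM in controls. The sums at 14 days were all below those in controls. The fibroblast and collagen lists both hold *Col1a1*, *Col1a2*, *Col3a1*, *Col14a1*, *Dcn*, *Lum* and *Mfap5*, so the fibroblast sum is no separate measure of cell content. The part of fibroblast content in the collagen values was not tested. Without lung 2 the matrix gene *Npnt* of the fibroblast list fell (log2 fold change -0.32, SE 0.09, FDR 0.186). *Pdgfra*, a growth factor receptor of lung fibroblasts, was at 444, 526 and 557 CPM and 608, 601, 579 and 565 CPM (log2 fold change -0.18, SE 0.07, FDR 0.397).

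Cholesterol is made from acetyl-CoA along the mevalonate pathway, and alveolar type 2 cells use it with fatty acids in surfactant. Of 21 cholesterol synthesis genes tested, 2 fell and 0 rose at an FDR of 0.25, 9 were lower and 0 higher at an unadjusted p under 0.05, and 18 had a log2 fold change below 0. Over all genes 0.275% fell at that FDR, 3.86% were lower at that p and 51% were above 0. Without 14-day lung 2, 6 of the list were lower at that p (4.5% of all genes) and 2 fell. *Hsd17b7* (chr1:169949535-169969241), a ketosteroid reductase of the late pathway, was at 5.39, 8.45 and 10.6 CPM at 14 days and 11.01, 14.6, 13.9 and 13.1 CPM in controls (log2 fold change -0.64, SE 0.14, FDR 0.106). *Idi1*, which isomerizes the isoprene unit, was at 30.7, 36.3 and 42.5 CPM and 50.7, 47.3, 49.5 and 52.5 CPM (log2 fold change -0.46, SE 0.12, FDR 0.161). Neither gene overlapped between the groups, and both had an FDR under 0.25 with GC offsets (0.0786 and 0.199). The median of the list was -0.22, and -0.20 without lung 2. Without control lung 2 the FDR was 0.278 and 0.278, and without control lung 3 0.2901 and 0.359.

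The promoters of both genes are shown because the pathway is known to be controlled through NF-Y, which binds CCAAT, beside the sterol-sensing factor SREBP2. Capitals mark CCAAT read on the opposite strand (ATTGG) and, in *Hsd17b7*, the E-box CACGTG (RefSeq, GRCm38.p6, chr1:169969156-169969455, minus strand, and chr13:8885356-8885655, plus strand).
Hsd17b7: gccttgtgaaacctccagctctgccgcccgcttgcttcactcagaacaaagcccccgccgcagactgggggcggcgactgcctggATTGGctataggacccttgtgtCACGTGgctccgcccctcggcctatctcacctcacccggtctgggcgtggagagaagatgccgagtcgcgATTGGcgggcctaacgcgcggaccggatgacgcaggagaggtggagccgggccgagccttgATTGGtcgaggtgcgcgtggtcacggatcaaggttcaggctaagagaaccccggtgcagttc
Idi1: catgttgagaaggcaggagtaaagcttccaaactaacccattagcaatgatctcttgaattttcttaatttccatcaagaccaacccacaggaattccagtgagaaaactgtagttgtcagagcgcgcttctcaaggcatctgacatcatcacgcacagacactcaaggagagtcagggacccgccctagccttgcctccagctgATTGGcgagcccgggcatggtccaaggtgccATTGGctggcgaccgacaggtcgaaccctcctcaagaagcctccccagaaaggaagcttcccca
*Hsd17b7* holds CCAAT 3 times and *Idi1* 2 times, all in the same orientation, with no overlap with the E-box. Of 21 listed genes, 16 matched a promoter by symbol and 15 of these hold CCAAT on either strand. Counted by promoter this is 15 of 19, against 37.4% of all 32851 promoters. The E-box stands in 3 of the 16 genes, by promoter 3 of 19, and in 7.15% of all promoters. The GC box GGGCGG was also searched, and stands in 15 of the 19 promoters and in 35.7% of all promoters.

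Of 20 fatty acid synthesis genes, *Acaca*, the acetyl-CoA carboxylase that commits carbon to the pathway, fell from 174, 194, 191 and 212 CPM to 148, 158 and 178 CPM (log2 fold change -0.28, SE 0.07, FDR 0.192), and no other passed. Its FDR was 0.254 to 0.468 without control lung 2, 3 or 4 or 14-day lung 1, 4 or 5. None of 18 genes of sterol regulation and uptake and none of 17 alveolar type 2 cell genes passed. The latter had a median of -0.12 and 4 genes lower at an unadjusted p under 0.05 (5 without lung 2). Over all genes tested 3.86% were lower at that p, and 4.5% without lung 2. The type 2 cell list summed to 14655 to 19083 CPM at 14 days and 18126 to 21409 CPM in controls. *Lamp3*, a lamellar body protein of these cells, was at 319.8, 395 and 442 CPM and 506, 466, 448 and 425 CPM (log2 fold change -0.24, SE 0.09, FDR 0.394). The part of the type 2 cell list in the lipid genes was not tested.

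**Figure D4:**
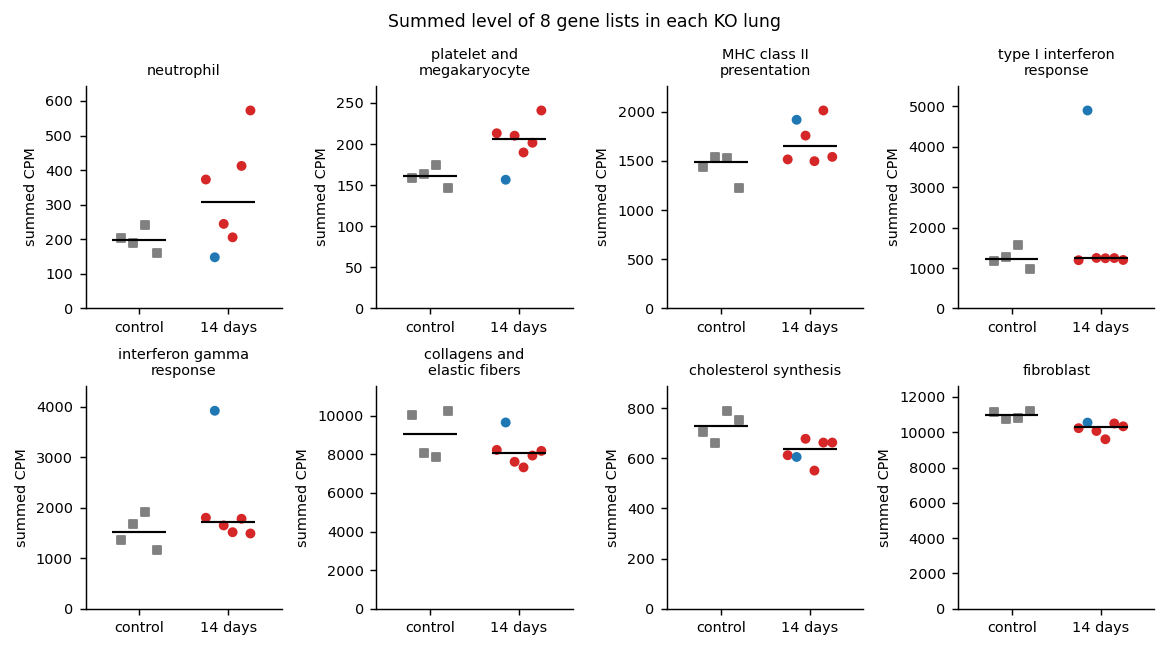
Summed CPM of 8 gene lists in each of the 4 control and 6 tumor-bearing KO lungs, on axes that start at 0. Points are single lungs, lung 2 at 14 days is blue, and lines are medians. Lung 2 lies at 4899.9 CPM in the type I interferon list, and is the lowest tumor-bearing lung in the neutrophil and platelet lists.

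The other genes past both limits belong to no list above. *Reep6*, which shapes membranes of the endoplasmic reticulum, was at 4.45, 5.44 and 6.41 CPM and 2.798, 2.14, 3.23 and 3.79 CPM (log2 fold change 0.85, SE 0.19, FDR 0.119). *Serpina10*, an inhibitor of coagulation factor X, was at 2.92, 3.64 and 4.49 CPM and 1.31, 2.14, 1.77 and 1.896 CPM (log2 fold change 1.05, SE 0.24, FDR 0.126), and *Ppp1r3d*, which targets protein phosphatase 1 to glycogen, at 3.79, 5.396 and 7.09 CPM and 2.61, 3.31, 1.61 and 2.28 CPM (log2 fold change 1.16, SE 0.27, FDR 0.126). All 3 were low in level and did not overlap between the groups. *Rgs2*, which shortens Gq signaling, was at 53.7, 74.96 and 90.7 CPM and 36.6, 46.7, 53.4 and 47.4 CPM (log2 fold change 0.66, SE 0.16, FDR 0.152). The synaptic adhesion gene *Nlgn2* was at 28.3, 34.9 and 51.8 CPM and 21.5, 25.1, 19.04 and 30.5 CPM (log2 fold change 0.63, SE 0.15, FDR 0.1298), and the pseudokinase gene *D8Ertd82e* at 7.41, 8.895 and 10.9 CPM and 6.53, 6.23, 4.68 and 4.55 CPM (log2 fold change 0.71, SE 0.17). Of the remainder, *Ptgir*, the receptor for prostacyclin, rose by 0.84 (SE 0.23), the matrix protease gene *Adamts7* by 0.74 (SE 0.22), the BMP co-receptor gene *Rgma* by 0.85 (SE 0.25) and tissue kallikrein *Klk1* by 1.22 (SE 0.32). *Slc2a6*, a hexose transporter, and *Rab6b*, a Golgi GTPase, rose by 0.78 (SE 0.21) and 0.63 (SE 0.16). With GC offsets the FDRs of *Nlgn2*, *Ptgir*, *Adamts7*, *Rgma*, *Slc2a6* and *Rab6b* were 0.259 to 0.322. *Adamts7* overlaps *Tbc1d2b* and *Cd180* overlaps *Mast4*, each on the opposite strand.

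Among the genes past both limits, the 3 largest increases were in genes with few counts. *Gm10146*, a processed pseudogene, had 1.35, 3.62 and 4.72 CPM at 14 days and 0.187, 0.195, 1.29 and 0 CPM in controls, with 0 to 26 counts per lung, so that its fitted log2 fold change of 2.77 (SE 0.70) depends on the prior count. *Sycp2*, a synaptonemal complex gene, was at 0.936, 2.23 and 2.79 CPM and 0.933, 0.3896, 0.323 and 0.1896 CPM (log2 fold change 2.08, SE 0.61), and *Trim30b*, of a family of ubiquitin ligases, at 3.27, 5.07 and 11.2 CPM and 1.87, 1.753, 1.94 and 0.758 CPM (log2 fold change 1.83, SE 0.50). *Rpl15-ps3*, a processed pseudogene of a ribosomal protein, was at 19.4, 28.9 and 32.1 CPM and 12.5, 12.7, 19.5 and 18.2 CPM (log2 fold change 0.77, SE 0.18). Both pseudogenes share sequence with their parent genes, and the split of reads between them is uncertain. *RP23-336O18.3*, an unverified transcript inside *Fbxl5* on the same strand, rose by 1.56 (SE 0.46).

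Of the 8 genes that fell past both limits, 3 encode proteins. Besides *Hsd17b7*, these were *Gbgt1*, the Forssman glycolipid synthase, at 1.99, 3.02 and 3.56 CPM and 5.22, 5.26, 4.52 and 5.88 CPM (log2 fold change -0.83, SE 0.17, FDR 0.106), and *Myo3b*, a class III myosin, at 0.782, 1.38 and 1.99 CPM and 2.798, 3.896, 2.58 and 2.09 CPM (log2 fold change -1.06, SE 0.28, FDR 0.192). Neither overlapped between the groups, and *Gbgt1* passed both limits with each of the 10 lungs left out except control lung 2. The other 5 lie within protein-coding genes. *Egfros*, antisense to *Egfr*, was at 4.18, 5.61 and 9.89 CPM and 14.4, 11.1, 10.7 and 7.77 CPM (log2 fold change -0.84, SE 0.20, FDR 0.152), beside a log2 fold change of -0.26 (SE 0.11) in *Egfr*. *Gm16144*, antisense to *Anxa2*, was at 1.32, 1.55 and 1.998 CPM and 2.98, 4.09, 2.42 and 2.84 CPM (log2 fold change -0.94, SE 0.24). The 3 unverified transcripts *RP24-303G10.1*, *RP23-296N5.4* and *Gm38252* lie on the same strand as *St6galnac3*, *Pdzrn3* and *Maml3*. They were at 4.07, 7.13 and 8.61 CPM and 10.3, 9.93, 13.4 and 8.34 CPM (log2 fold change -0.70, SE 0.19), at 4.54, 6.01 and 8.75 CPM and 13.6, 10.3, 9.36 and 9.101 CPM (log2 fold change -0.76, SE 0.21), and at 1.72, 1.81 and 2.69 CPM and 4.66, 3.701, 3.71 and 2.65 CPM (log2 fold change -0.90, SE 0.26). Reads of these 3 cannot be told apart from unspliced RNA of the host gene. The strand setting of the counting is not given in the sources used here, so the reads of *Egfros* and *Gm16144* may include those of the opposite gene.

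Inflammatory pathways showed few differences that passed. Of 26 chemokine and chemokine receptor genes tested, *Cxcr2* alone rose. None passed of 39 NF-κB targets and immediate early genes (median 0.08), 20 genes of the interleukin-6 family and acute phase (median 0.01), 20 complement genes (median -0.03) or 14 VEGF ligands and receptors (median -0.02). *Il1b*, interleukin-1β, was at 3.93, 19.1 and 33.2 CPM and 4.85, 8.77, 12.1 and 5.498 CPM (log2 fold change 1.23, SE 0.39, FDR 0.296), and *Ptgs2*, the inducible cyclooxygenase, at 16.2, 26.01 and 38.4 CPM and 26.9, 39.1, 53.1 and 45.1 CPM (log2 fold change -0.64, SE 0.24, FDR 0.397). The groups overlapped in both. Without lung 2, which was the lowest lung at 14 days in 19 of the 39 NF-κB targets, *Il1b* rose (log2 fold change 1.43, SE 0.31, FDR 0.103), as did *Il1r2* of the interleukin-6 and acute phase list (log2 fold change 2.46, SE 0.72, FDR 0.217), and the complement gene *C2* fell (log2 fold change -0.33, SE 0.09, FDR 0.198). The medians of these 3 lists were then 0.17, 0.08 and -0.09, and that of the NF-κB targets was 0.28 without control lung 3. *Cry1*, a repressor of the circadian clock, was at 9.89, 13.2 and 24.2 CPM and 8.58, 8.38, 9.68 and 10.8 CPM (log2 fold change 0.64, SE 0.21, FDR 0.304), and no clock gene of 19 passed. Cell division genes had a median of 0.18 with lung 2 and 0.06 without it, and 0 of 29 passed. Of 13 mitochondrially encoded genes, *mt-Nd2*, a subunit of complex I, rose by 0.30 (SE 0.07, FDR 0.126, but 0.305 without control lung 2 and 0.346 without control lung 3), while 0 of 38 nuclear respiratory chain genes passed.

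The lists of resident lung cells checked the labelled tissue. Alveolar type 1 and type 2, club, ciliated and endothelial cell genes were present in every KO lung, with summed levels of endothelial genes of 9131 to 9634 CPM at 14 days and 9097 to 9467 CPM in controls. Of 18 alveolar macrophage genes 0 passed (median -0.23), and *Mrc1*, the mannose receptor, was at 97.2, 121 and 133 CPM and 151, 133, 140.4 and 142 CPM (log2 fold change -0.24, SE 0.10, FDR 0.452) without overlap. Genes of mammary epithelium and 6DT1-type tumor cells summed to 182 to 222 CPM at 14 days and 192 to 216 CPM in controls, the caseins *Csn1s1*, *Csn2* and *Csn3* had no count in any KO lung, and 0 of 9 tested genes passed. Cardiac muscle genes were at 735 to 916 CPM at 14 days and 807 to 983 CPM in controls, and mesothelial genes did not pass with all lungs, while *Msln* fell without lung 2 (log2 fold change -0.25, SE 0.07, FDR 0.193). Adipocyte genes were at 161 to 231 and 198 to 256 CPM.

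The same genes were then examined in wildtype lungs, whose 14-day and control samples are other animals. Of the 42 genes, 29 had the same direction there and 13 the opposite one, while over all genes tested the direction was shared by 52.4%. An unadjusted p under 0.05 in the same direction was found for 12 of the 42, against 7.05% of all genes tested. Both neutrophil receptors were among them, with log2 fold changes in WT lungs of 1.15 (SE 0.39) for *Csf3r* and 1.34 (SE 0.29) for *Cxcr2*. So were *Ppp1r3d* (1.26, SE 0.27), *Slc40a1* (0.59, SE 0.20), *Trim30b* (1.31, SE 0.45) and *Sycp2* (1.66, SE 0.52). By contrast *Klk1* and *Rpl15-ps3* had an unadjusted p under 0.05 in the opposite direction, at -0.59 (SE 0.25) and -0.56 (SE 0.17).

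The interaction of genotype and tumor tests whether the change in KO lungs differs from that in WT lungs. It passed an FDR of 0.25 for 8 genes (0.0499% of those tested, 8.53% having an unadjusted p under 0.05), against 184 in DESeq2. The study itself used DESeq2, whose FDR covers another set of genes here, so the 184 have no share on the same basis. The 8 genes all had a log2 fold change above 0 in KO and below 0 in WT lungs. *Nfix* differed most clearly, at 0.53 (SE 0.09) in KO and -0.32 (SE 0.09) in WT lungs, a difference of 0.86 (SE 0.13, FDR 0.02401). *Ltbp4* differed by 0.79 (SE 0.16, FDR 0.205). The others were *Lrp10*, *Mgat4b*, *Rnf44*, the zinc finger gene *Zc3h7b*, *Prrc2a* and *Rpl15-ps3*. With single KO lungs left out the number ran from 1 to 127, and *Nfix* alone of the 8 passed each time. The other 7 had FDRs of 0.297 to 0.401 without control lung 2, and of 0.427 to 0.443 without control lung 3 except *Rpl15-ps3* (0.112). They were also lost without 14-day lung 3 or 5, and most of them without control lung 4 or 14-day lung 1. *Tgfb1*, at 0.66 (SE 0.17) in KO and -0.22 (SE 0.16) in WT lungs, did not pass (difference 0.88, SE 0.23, FDR 0.3004). For *Csf3r* and *Cxcr2* the difference was 0.27 (SE 0.55) and -0.33 (SE 0.42).

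The GC trend moved with this comparison too, since it was positive in all 4 WT controls, at 0.0252 to 0.166 per 10 percentage points. With GC offsets *Nfix* was the 1 gene that passed, with a difference of 0.66 (FDR 0.0613), and *Ltbp4* was at 0.49 (FDR 0.418). Differences in the lists of lymphocyte genes passed for no gene at an FDR of 0.25. At an unadjusted p under 0.05 in the interaction test, without GC offsets, there were 8 of 19 B cell, 6 of 23 T cell and 5 of 11 class II genes. The neutrophil list had 0 of 16 and the collagen list 6 of 35, against 8.53% of all genes tested. The B cell list had a median of 0.39 in KO and -0.51 in WT lungs, the T cell list 0.24 and -0.28, and the class II list 0.28 and -0.16, while the neutrophil list had 1.16 and 1.23 and the collagen list -0.15 and -0.24.

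**Figure D5:**
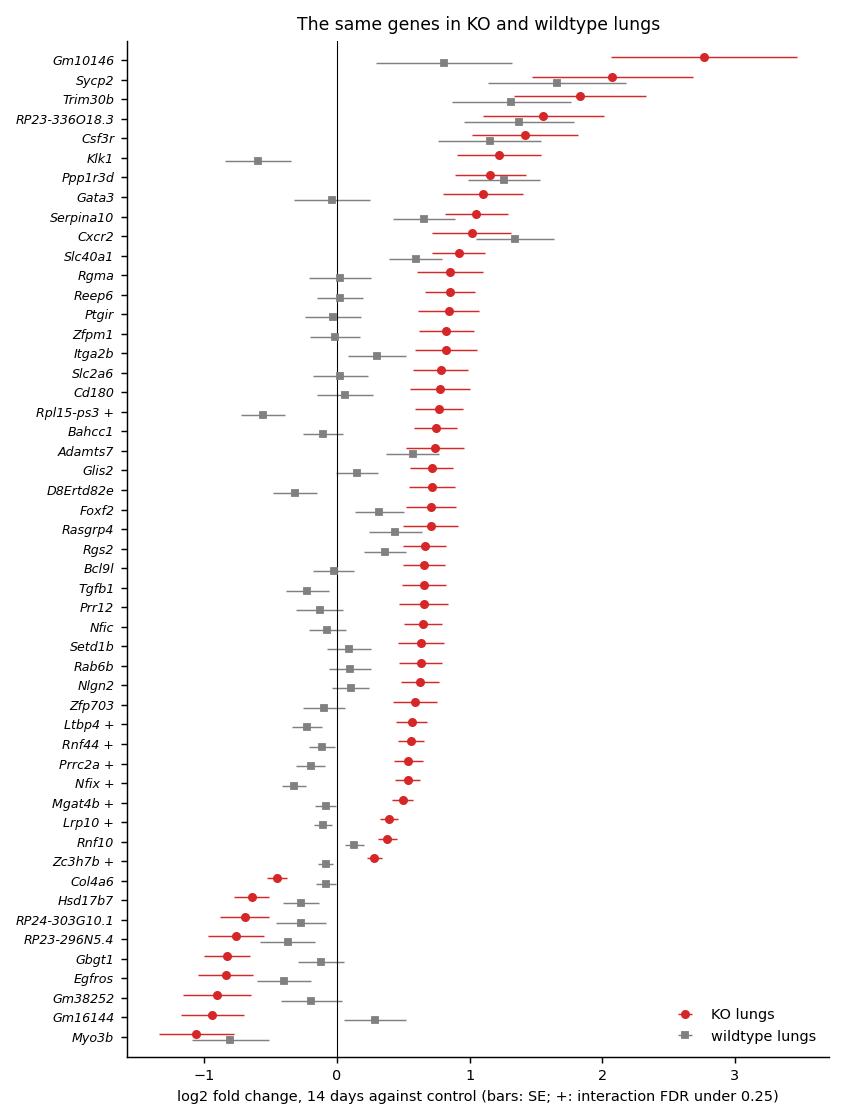
Log2 fold change between 14-day and control lungs in KO (red) and wildtype (grey) mice, with SE as bars, for 51 genes, namely the 42 past both limits in KO lungs and those with an FDR under 0.05 there or an interaction FDR under 0.25 (marked +). *Csf3r*, *Cxcr2*, *Ppp1r3d*, *Trim30b* and *Sycp2* are among the genes above 1 in both genotypes, and the 8 marked genes lie above 0 in KO and below 0 in wildtype lungs.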

How the data were processed

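RNA from frozen bulk lung was sequenced as paired-end stranded mRNA libraries. The authors aligned the reads to GRCm38 (mm10) with STAR and deposited expected counts per gene from RSEM as whole numbers without normalization, and FPKM values, which are scaled to library size and gene length. The FPKM values were read but no result rests on them. GENCODE M21 gave positions, biotypes and GC content for 29244 of 29511 genes.

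The counts of all 20 lungs were fitted in one model with one mean per group by the quasi-likelihood test of edgeR 4.0.16 (R 4.3.3, TMM, filterByExpr), with Benjamini-Hochberg FDR over all genes tested and limits of 0.25 and 1.5-fold. The SE is the log2 fold change divided by the square root of F. The replicates are independent animals. Named are *Clic4*, the genes past both limits, those with an FDR under 0.05 or an interaction FDR under 0.25, and from each of 49 gene lists up to 6 members with an FDR under 0.25, or else the 3 of smallest p, with exceptions stated. The genes, lists and tests were chosen with earlier results of these data known. Replicate numbers did not pair the lungs across groups (correlations of deviations -0.0945 to 0.0443), and 21 pairs of KO libraries of 1 group differed by more than sampling noise (chi-square per degree of freedom 2.43 to 9.32). Intervals of precision cover these animals only.

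Alternatives were DESeq2 1.42.0, KO lungs alone, RLE size factors, no *Rn7s1*, *Rn7s2* and *Rn7sk*, other filters and limits, a replicate block, GC offsets (loess span 0.5) and each KO lung left out. The fits were tested on simulated data.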

Additional observations from a re-analysis of the deposited data

Results flagged for a closer look

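A single KO lung lay far from the others of its group in 13 of 194 groups of values checked, by the ratio of its gap to the range of the group. Chance alone does so in about 1 in 20 groups. The most extreme was 14-day lung 2 in the type I interferon list, at 4899.9 CPM against 1194 to 1250.2 CPM (ratio 0.985), and the same lung was apart in the interferon-γ list (3916 against 1489 to 1801 CPM, ratio 0.872) and in complement genes (2747 against 2011 to 2206 CPM, ratio 0.735). It also had the lowest neutrophil sum of its group, though not far apart from the next. Among the genes past both limits, *Trim30b* was high in 14-day lung 6 (11.2 CPM against at most 6.18, ratio 0.633) and low in control lung 4 (0.758 against at least 1.753 CPM, ratio 0.844), *Gm10146* high in control lung 3 (1.29 against at most 0.195 CPM, ratio 0.849) and *Gm38252* high in 14-day lung 1 (2.69 against at most 2.06 CPM, ratio 0.653).

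The remaining lists with 1 lung apart were fatty acid synthesis (14-day lung 3, 4971 CPM against 3290.4 to 3899 CPM, ratio 0.638), iron and heme handling (14-day lung 6, 3093 CPM against 2773 to 2849.7 CPM, ratio 0.7597), alveolar type 2 cell (14-day lung 1, 14655 CPM against 17648 to 19083 CPM, ratio 0.676), alveolar type 2 cell (control lung 1, 21409 CPM against 18126 to 18478 CPM, ratio 0.893), skeletal muscle (14-day lung 6, 27.2 CPM against 10.4 to 15.04 CPM, ratio 0.722) and adipocyte (control lung 4, 256 CPM against 198 to 203 CPM, ratio 0.9002).

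The change at 14 days differed between KO and WT lungs by the interaction test at an FDR of 0.25 for 8 genes. The difference on the log2 scale, KO minus WT, was 0.86 for *Nfix*, 0.50 for *Lrp10*, 0.37 for *Zc3h7b*, 0.74 for *Prrc2a*, 0.67 for *Rnf44*, 0.58 for *Mgat4b*, 0.79 for *Ltbp4* and 1.33 for *Rpl15-ps3*. With GC offsets *Nfix* alone passed, and the part of the GC trend in the others was not tested further.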

How the results depend on the processing

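The number of genes past both limits in KO lungs was 20 (14 higher, 6 lower) with GC offsets. Under other limits in edgeR it was 0 (0 higher, 0 lower) at an FDR of 0.05 and 1.5-fold, where DESeq2, a setting added after the data were seen, gave 13 (11 higher, 2 lower), and it was 169 (125 higher, 44 lower) with no fold limit, 6 (5 higher, 1 lower) at an FDR of 0.05 with no fold limit, and 11 (10 higher, 1 lower) at 2-fold. Leaving out each KO lung in turn gave 2 to 60 genes in all, 2 to 44 higher and 0 to 17 lower. The extremes came without control lung 2, which kept *Cd180*, and without 14-day lung 2, and the cause was not tested. DESeq2 on the 20 lungs gave 46 (37 higher, 9 lower), of which 34 were among the 42. Fitted on the KO lungs alone, without the WT lungs, 29 of the 42 passed both limits in edgeR and 26 in DESeq2.

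For the interaction, 184 genes passed in DESeq2, 1 with GC offsets, and 1 to 127 with a lung left out, most without control lung 1. The genes past both limits with the same direction in WT lungs numbered 1 to 45 with a lung left out.

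Replicate numbers were shared by the groups but did not pair the lungs. With the replicate block, 129 (84 higher, 45 lower) genes passed both limits, 41 of them among the 42, 104 had the same direction in WT lungs and 1 passed the interaction. The block with GC offsets gave 87 (48 higher, 39 lower) and 1 for the interaction.

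Of 3231 recomputed log2 fold changes of named genes, 5 changed sign and 0 of these were in the 42 genes. They were *Clic1* (-0.0109 with GC offsets and the replicate block), *Bst2* (-0.0593 to 1.03 with a lung left out, below 0 without 14-day lung 2), *Kit* (-0.0279 to 0.0537, below 0 without 14-day lung 3) and *Tnnt3* (-0.182 to 0.464, below 0 without 14-day lung 6 or control lung 4). Depth limits the genes of few counts, since 9 of the 42 genes had under 10 counts in at least 1 KO lung.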

Other observations

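Laminins, which form another network of basement membranes beside collagen IV, were examined after the values of *Col4a6* and *Col4a3* were seen. Of 11 laminin chain genes tested, 3 fell at an FDR of 0.25 and 8 had a log2 fold change below 0. Over all genes tested 0.275% fell at that FDR and 51% were above 0. *Lama2* was at 156, 159 and 180.4 CPM at 14 days and 201, 193, 188 and 205 CPM in controls (log2 fold change -0.27, SE 0.06, FDR 0.106). *Lamb1* was at 127, 136 and 150.4 CPM at 14 days and 160.2, 156, 152 and 173 CPM in controls (log2 fold change -0.22, SE 0.05, FDR 0.126), and *Lamc1* at 194, 211 and 227 CPM at 14 days and 239.7, 233, 234 and 268 CPM in controls (log2 fold change -0.21, SE 0.06, FDR 0.175). Without control lung 2 their FDRs were 0.2605, 0.278 and 0.278, and *Lamb1* and *Lamc1* had 0.338 and 0.472 without control lung 4. *Lamc1* was also above 0.25 without control lung 3 (0.346) or 14-day lung 4 (0.291). The 3 chains are known to join into 1 trimer of muscle and nerve basement membranes. With GC offsets the FDRs were 0.0786, 0.159 and 0.294. In WT lungs the log2 fold changes were -0.02, -0.14 and -0.04, and the interaction did not pass (FDR 0.403, 0.796 and 0.536). All 6 collagen IV chains had values below 0, of which 2 passed. Of 5 laminin-binding integrin genes, none passed an FDR of 0.25.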
